A study of Homo sapiens with 20 samples.

Results

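H3K4me3, trimethylation of lysine 4 of histone H3, was mapped by ChIP-seq in LNCaP cells, a human prostate cancer cell line, 144 h after transfection with a 20 nM pool of control siRNA or of CTCF siRNA, with a second transfection midway. The members described here are the H3K4me3 regions of the 4 lists of these libraries (2 libraries of control siRNA and 2 of CTCF siRNA) on chromosomes 1 to 22 and X. The lists held 185835 of the 788427 regions and peaks deposited for the 20 libraries of the series. Control replicates 1 and 2 listed 36492 and 48462 regions, and CTCF siRNA replicates 1 and 2 listed 41107 and 59774. Regions of different libraries that overlapped by at least 1 bp were joined, which gave 73503 joined regions, of which 26802 were present in all 4 lists. The samples are duplicates of 1 transfected cell line, and siRNA lowers the mRNA of its target without removing the gene, so some CTCF protein can remain in every cell.

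CTCF is a zinc finger protein that binds DNA at a long motif, stops cohesin as it extrudes loops and separates neighbouring chromatin domains. H3K4me3 is deposited by SET1 and MLL-type methyltransferases around the start sites of active genes, where it usually spreads over the first nucleosomes in both directions, and weaker H3K4me3 is also found at active enhancers. The comparison asks whether the extent of this mark moved where CTCF was depleted, since CTCF sites near promoters are often described as borders of active chromatin.

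The depletion was visible in the CTCF peak lists of the same treatments. Control libraries 1 and 2 listed 37969 and 46293 CTCF peaks, and the CTCF siRNA libraries listed 3711 and 7716. Of 33376 CTCF sites with a peak in both control libraries, 26239 (78.6%) had no peak after CTCF siRNA and are called lost, 4047 (12.1%) had a peak in 1 CTCF siRNA library, and 3090 (9.26%) had a peak in both. The sites of the last 2 classes together are called kept. In the account of the study, CTCF siRNA replicate 1 had far fewer CTCF reads than any other LNCaP CTCF library. A peak can be missed there for read depth alone, so these classes describe the lists. The share that depth has in them was not tested. The H3K4me3 lists also fitted the label of the cells. All 12 prostate luminal marker genes, among them KLK3 and HOXB13, had a region over their start in every library, whereas none of 6 leukocyte markers had one in any library. The start of 1 of 6 basal markers (ITGB4) and of 1 of 4 endothelial markers in the annotation (KDR) was covered in all libraries. Among 7 fibroblast markers, THY1 was covered in control replicate 1 and in both CTCF siRNA libraries. The starts of COL1A1 and LUM were covered in CTCF siRNA replicate 2 only, the library with the longest list. COL1A1 nevertheless had 1 region in every library, which in the others did not reach the start.

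The sequences below are reference windows of 80 bases of hg19, written along the plus strand, at the control CTCF summits of 6 regions to which the results return. A summit is the base with the highest signal within a peak. They are the sites nearest to edges that moved at DUSP23, DNM2 and BLTP2, the site inside a promoter region that was narrower at ACKR3, and the sites inside 2 regions that only the control lists held at equal list length, at PCDHGA2 and HSD17B14. The first lies at chr1:159750409-159750488 (intergenic), the second at chr19:10828122-10828201 (intergenic), the third at chr17:26974001-26974080 (intergenic), the fourth at chr2:237478376-237478455 (intron of ACKR3), the fifth at chr5:140718244-140718323 (intron of PCDHGA1) and the last at chr19:49339121-49339200 (intron of HSD17B14).
DUSP23 site: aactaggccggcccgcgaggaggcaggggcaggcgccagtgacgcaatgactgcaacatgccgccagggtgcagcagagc
DNM2 site: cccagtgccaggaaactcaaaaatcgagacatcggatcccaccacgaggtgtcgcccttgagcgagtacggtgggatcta
BLTP2 site: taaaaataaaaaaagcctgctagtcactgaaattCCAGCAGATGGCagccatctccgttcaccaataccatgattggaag
ACKR3 site: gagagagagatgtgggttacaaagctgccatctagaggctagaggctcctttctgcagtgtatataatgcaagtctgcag
PCDHGA2 site: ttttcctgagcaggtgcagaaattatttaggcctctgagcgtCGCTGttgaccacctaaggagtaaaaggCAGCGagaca
HSD17B14 site: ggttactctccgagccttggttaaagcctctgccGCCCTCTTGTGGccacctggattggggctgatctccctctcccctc

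In the BLTP2 and HSD17B14 windows, capitals mark a match to CCANNAGNNGGC, the best conserved letters of the CTCF motif, on either strand. This string was searched within 100 bp of each summit and was present at 23.4% of 26239 lost sites, 40.7% of sites found in 1 CTCF siRNA library and 43.2% of 3090 sites found in both, against 0.583% of windows of the same length at 48565 H3K4me3 edges without a CTCF site. In the PCDHGA2 window, capitals mark CGCTG on either strand, letters that recur at clustered protocadherin promoters. They were found in 20 of 27 windows of 80 bases at control CTCF summits within 1000 bp of a protocadherin start that carried H3K4me3 (74.1%) and in 11.8% of the windows at all control CTCF summits. No match means only that these letters are not in the window.

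The width of shared regions was compared first. Of the 26802 regions in all 4 lists, 24543 were called as 1 piece in every library. Their median width was 1700 bp and 2000 bp in control replicates 1 and 2, and 1800 bp and 2150 bp in CTCF siRNA replicates 1 and 2. The widths of the treatments thus interleaved, with replicate 2 wider than replicate 1 in both. The mean of the library medians was 1850 ± 212 bp (SD, n = 2) in control cells and 1975 ± 247 bp (SD, n = 2) after CTCF siRNA, a difference smaller than either SD (exact permutation test, two-sided p = 0.667, where 0.33 is the smallest p that 2 against 2 libraries allow).

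Region by region, the median difference in log2 width between CTCF siRNA and control cells was 0.05, against 0.12 between the control libraries and 0.17 between the CTCF siRNA libraries. Its sign depended on single libraries. The median was -0.0063 without control replicate 1 and -0.031 without CTCF siRNA replicate 2, and it was 0.12 without control replicate 2 and 0.15 without CTCF siRNA replicate 1. In limma fitted to the log2 widths of all 24543 regions, 0 regions (0%) were wider and 0 regions (0%) narrower at an adjusted p under 0.05, and the smallest adjusted p was 1. At an unadjusted p under 0.05, limma listed 792 wider and 181 narrower regions. When the widths of each library were centred on their median log2 width, limma called 47 regions wider and 16 narrower, and the median difference became -0.04. Of these, 10 of the wider and 2 of the narrower regions held the start of a protein-coding gene.

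The median difference was smallest in wide regions, which went both ways. Where the mean width over the 4 libraries was above 4000 bp, the medians were 4450, 4600, 4350 and 4750 bp in control replicates 1 and 2 and CTCF siRNA replicates 1 and 2, and the median treatment difference was 0.00 (1618 regions). Of these, both CTCF siRNA libraries were wider than both control libraries at 9.15% and narrower at 12.2%, whereas at 1540 regions of at most 1000 bp the shares were 21.4% and 4.48%. In the latter class the medians were 750, 950, 850 and 1100 bp in the same order, and the median difference was 0.19, below the 0.30 between the control replicates and the 0.39 between the CTCF siRNA replicates. The 10039 regions over a protein-coding start had a median difference of 0.02 and median widths of 2900, 3050, 2900 and 3200 bp. The 14504 others had a median difference of 0.10 and median widths of 1200, 1500, 1300 and 1650 bp. In every width class the replicates of a treatment differed from each other by more than the treatments did.

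**Figure D1:**
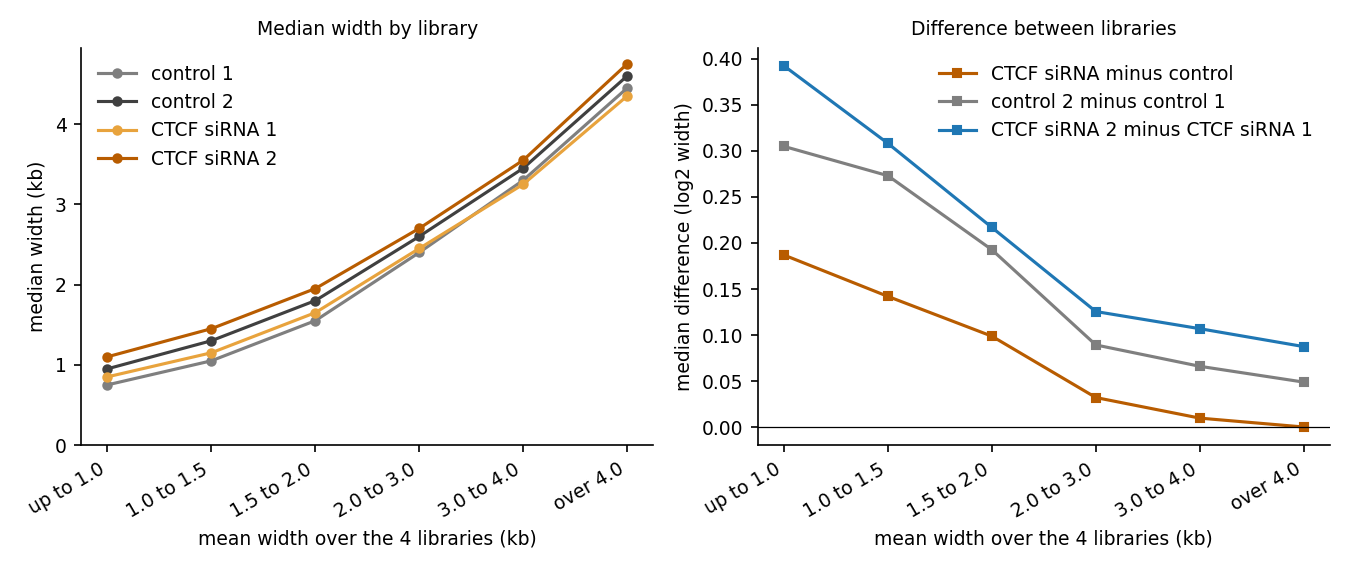
Median width in kb of regions called as 1 piece in all 4 lists, by library (left), and median log2 difference between treatments and between replicates (right), against the mean width over the 4 libraries in 6 classes from up to 1.0 kb to over 4.0 kb. The treatment line falls from 0.19 to 0.00 and lies below both replicate lines in each class.

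The widths of both CTCF siRNA libraries lay above both control libraries at 4008 regions (16.3% of the 24543) and below both at 1452 (5.92%). Over protein-coding starts the shares were 12.9% and 6.84%, and elsewhere 18.7% and 5.27%. Among the promoter regions whose groups did not overlap, those with the smallest p in each direction are described, since none passed the adjusted test (limma adjusted p = 1 for each). The values show how far single promoters moved relative to their replicates.

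PPP2R2B encodes a regulatory subunit of a serine/threonine phosphatase. Its region measured 900 and 950 bp in control cells and 2500 and 2650 bp after CTCF siRNA, a log2 difference of 1.48 ± 0.09 (SE, n = 2 per treatment). Most of the added length lay downstream of the start, where the edge was at 519 and 419 bp in control cells and at 1819 and 1919 bp after CTCF siRNA. KCNA1, a voltage-gated potassium channel, had regions of 850 and 600 bp in control cells and 2450 and 2400 bp after CTCF siRNA (log2 difference 1.76 ± 0.21). The 2 control regions at KCNA1 did not overlap each other, since one lay upstream and the other downstream of the start, and each CTCF siRNA region spanned both. SGK2, a kinase of the serum and glucocorticoid regulated family, had 1000 and 800 bp in control cells and 2350 and 2550 bp after CTCF siRNA (log2 difference 1.45 ± 0.15). These 3 genes also passed the test on centred widths, with limma adjusted p of 0.0148, 0.0212 and 0.0335.

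At NOMO3, the region was 1100 bp wide in both control libraries and began 166 bp downstream of the gene start. After CTCF siRNA it was 2100 and 2200 bp wide and reached 884 and 984 bp upstream, so the start itself lay within H3K4me3 only in CTCF siRNA cells. NOMO3 has near-identical copies in the genome and the authors discarded reads with several positions, so its region rests on the reads that could be placed. MAP1B, a microtubule-associated protein, kept its upstream edge at 1101 bp in 3 libraries and 1301 bp in CTCF siRNA replicate 2. Its downstream edge lay at 2098 bp in both control libraries and at 3998 and 3948 bp after CTCF siRNA, with widths of 3200 bp in both control libraries and of 5100 and 5250 bp after CTCF siRNA. TMEM61 had 1000 and 900 bp against 1850 and 1900 bp, and MESP2, a transcription factor of somite formation, 1300 and 1350 bp against 2250 and 2350 bp. None of these regions held a control CTCF site.

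In the opposite direction, ZBTB39, a zinc finger and BTB domain gene, had the smallest p. Its region was 2600 bp wide in both control libraries and 1200 and 1250 bp wide after CTCF siRNA, a log2 difference of -1.09 ± 0.09 (SE). Both edges lay closer to the start after CTCF siRNA, the upstream edge at 120 bp in both libraries against 920 and 970 bp in control cells. A CTCF site 48 bp upstream of its start, with a fold enrichment of 13.5 and 4.59 in the control libraries, was lost. ACKR3, an atypical chemokine receptor, had 4200 and 4500 bp in control cells and 2250 and 2400 bp after CTCF siRNA (log2 difference -0.90 ± 0.10). Here the downstream edge lay at 3332 and 3382 bp in control cells and at 1382 and 1632 bp after CTCF siRNA. The ACKR3 site printed above, 52 bp upstream of the start, had a fold enrichment of 10.4 and 13.7 in control cells and no peak after CTCF siRNA. On centred widths both genes passed, with limma adjusted p of 0.0335 and 0.0423.

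The other 6 narrower promoter regions held no control CTCF site. ARG1, the arginase of the urea cycle, had 1800 and 1700 bp in control cells and 1100 bp in both CTCF siRNA libraries. TBC1D20, a GTPase-activating protein for Rab, had 2750 and 2700 bp against 1750 and 1800 bp. At TBC1D20 the upstream edge lay at 723 and 773 bp in control cells and 73 bp in both CTCF siRNA libraries. ENGASE, a cytosolic endoglycosidase, had its upstream edge at 805 and 705 bp in control cells and at 5 and 55 bp after CTCF siRNA, with 2450 and 2500 bp against 1600 and 1750 bp in width, and its downstream edge between 1594 and 1794 bp in all libraries. ANKAR measured 2350 bp in both control libraries and 1500 and 1650 bp after CTCF siRNA. VGF, a neurosecretory protein, had 950 and 1000 bp against 700 and 750 bp, and SYNGR1, a synaptic vesicle protein, 2000 and 2100 bp against 1550 and 1600 bp.

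**Figure D2:**
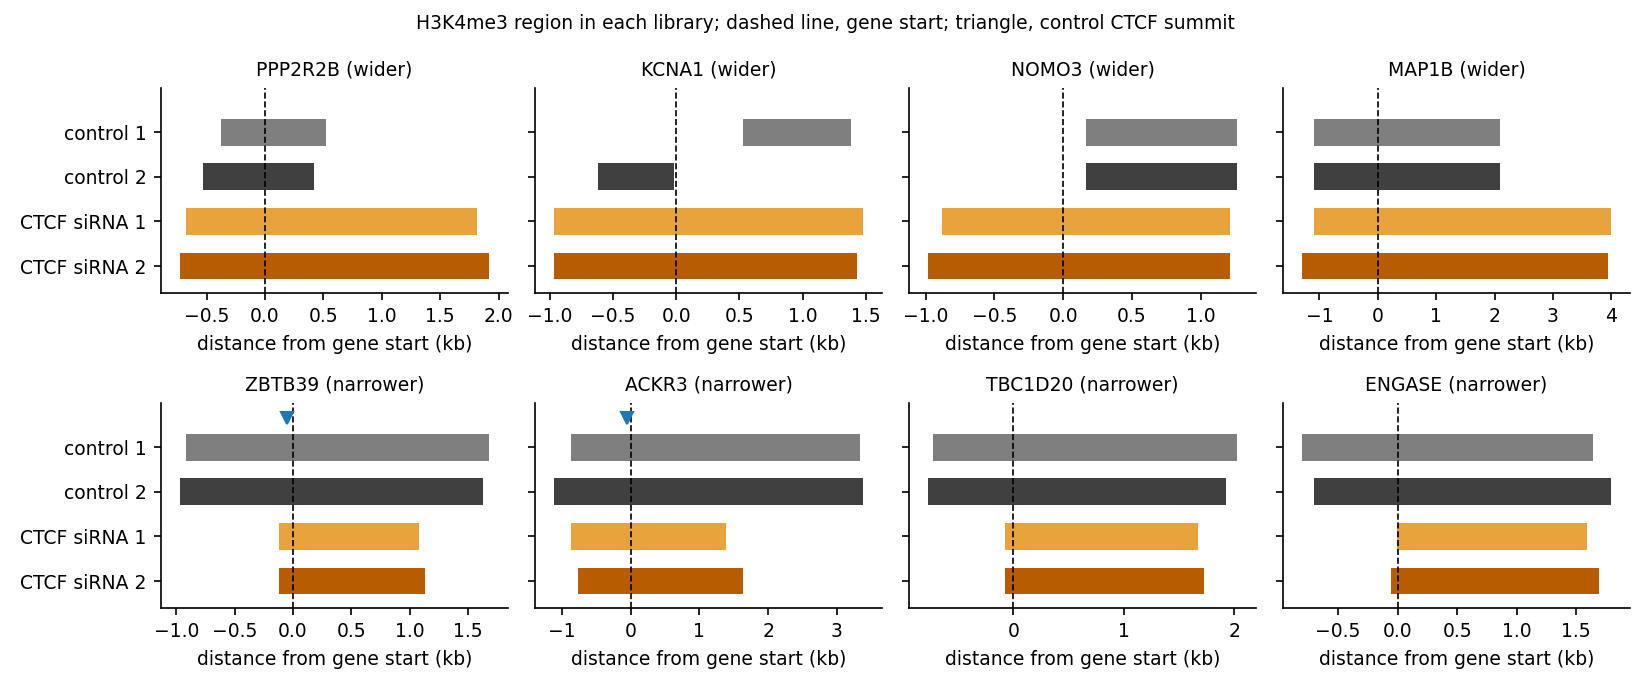
H3K4me3 regions as bars, 1 per library, at 4 promoters that were wider and 4 that were narrower after CTCF siRNA, against the distance from the gene start in kb, upstream to the left. The dashed line is the gene start and triangles mark control CTCF summits, present at ZBTB39 and ACKR3. At NOMO3 the start lies outside the region in both control libraries and inside it in both CTCF siRNA libraries, and at ENGASE and TBC1D20 the upstream edge lies next to the start after CTCF siRNA.

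Edges were then followed one by one. Each of the 24543 regions has 2 edges, and an edge was counted as moved when both CTCF siRNA positions lay beyond both control positions and the means differed by at least 200 bp. Of 49086 edges, 4263 moved outward (8.68%) and 1622 inward (3.3%). The balance followed the libraries compared, since without CTCF siRNA replicate 2 there were 4001 outward and 6838 inward moves, without control replicate 1 6040 outward and 6100 inward, without CTCF siRNA replicate 1 15382 outward and 2092 inward, and without control replicate 2 12231 outward and 2265 inward. An excess of outward moves over the whole genome therefore rested on CTCF siRNA replicate 2 and control replicate 1.

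For 9097 regions whose protein-coding starts were all on 1 strand, the edge upstream of the gene and the edge downstream of it, towards the gene body, were separated. Upstream edges moved outward in 7.34% (Wilson 95% interval 6.82 to 7.90%) and inward in 1.06% (0.865 to 1.29%). Downstream edges moved outward in 4.57% (4.16 to 5.02%) and inward in 4.33% (3.93 to 4.77%). Intervals here and below cover counting error only, and neighbouring edges are not independent. Between the control libraries, by the same 200 bp, 17.1% of upstream and 18.6% of downstream edges lay further out in replicate 2, and 1.26% and 3.73% further in. Between the CTCF siRNA libraries, the shares were 24.7% and 35.2% further out and 0.616% and 1.32% further in. Inward displacement was thus scarcer upstream than downstream between replicates as well as between treatments. The higher outward share of upstream edges was 1.61 times the downstream share with all 4 libraries, and 1.01 times without CTCF siRNA replicate 1.

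**Figure D3:**
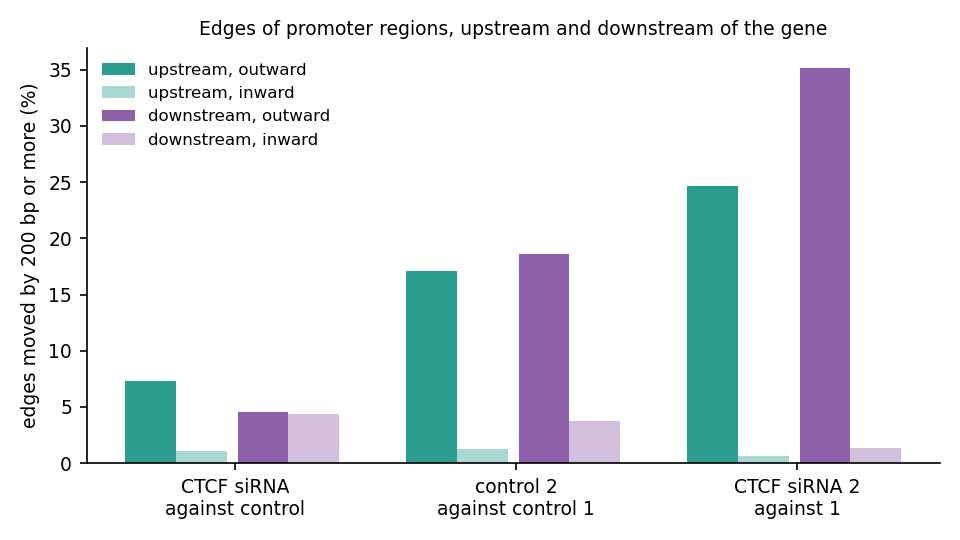
Share of upstream and downstream edges of 9097 promoter regions that lay further out (solid) or further in (pale), in percent, by at least 200 bp, for CTCF siRNA against control (both libraries beyond both, difference of means), for control replicate 2 against 1 and for CTCF siRNA replicate 2 against 1. The replicate comparisons are between single libraries and give larger outward shares, from 17.1% to 35.2%.

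Edges at CTCF sites were of particular interest. An edge was taken to lie at a site when a control CTCF summit was within 250 bp of its mean position in the control libraries, which held for 521 of 49086 edges. Of these, 123 moved outward (23.6%, Wilson 95% interval 20.2 to 27.4%) and 22 inward (4.22%, 2.80 to 6.31%), against 8.52% outward and 3.29% inward among 48565 edges without a site. At lost sites 20.3% of 403 edges moved outward, and at kept sites 34.7% of 118 did. Without CTCF siRNA replicate 1 the outward share was 1.75 times that of other edges, against 2.77 times with all libraries. The surplus did not hold when the edge position was taken from the other treatment. With positions from the CTCF siRNA libraries, 442 edges lay at a site, of which 8.37% moved outward (6.13 to 11.3%) and 10.2% inward (7.70 to 13.4%), against 8.69% and 3.24% without a site. With the mean over all 4 libraries, 443 edges lay at a site, and both shares were above those of other edges, 14.7% (11.7 to 18.3%) against 8.63% outward and 7.45% (5.35 to 10.3%) against 3.27% inward. Edges near CTCF sites thus moved more often than other edges when all libraries were weighed alike, and over all sites no direction held across the 3 ways of assigning them. At kept sites the outward share was above that of other edges in all 3, with 34.7% of 118 edges from control positions, 22.8% of 79 (Wilson 95% interval 14.9 to 33.2%) from all 4 libraries and 15.1% of 73 (8.63 to 25.0%) from CTCF siRNA positions, where the interval included the 8.69% of edges without a site. The inward share at kept sites was 2.54%, 6.33% and 10.96% in the same order. The last 2 assignments were added after the data were seen.

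DNM2 and DUSP23 show the outward pattern. At DNM2, a dynamin GTPase of membrane fission, the left edge lay at position 10828401 of chromosome 19 in both control libraries and at 10827401 in both CTCF siRNA libraries. Widths were 2650 and 2700 bp in control cells and 3450 and 3700 bp after CTCF siRNA. The DNM2 site, with a fold enrichment of 15.0 and 13.0 in control cells, lay 239 bp outside the mean control edge, was lost, and its position was inside the region in both CTCF siRNA libraries. At DUSP23, a dual specificity phosphatase, the left edge lay at 159750601 of chromosome 1 in both control libraries and at 159749801 and 159749151 after CTCF siRNA. Its site had a fold enrichment of 21.8 and 16.9 in control cells and 6.44 in CTCF siRNA replicate 2, with no peak in replicate 1. Widths were 1600 and 1750 bp against 2600 and 3150 bp. The other 2 of the 4 farthest outward moves were in an exon of LRRC45, 1069 bp from the start of RAC3, with widths of 600 and 1100 bp against 1750 and 2700 bp, and in an intron of TMTC2, with 1100 and 1650 bp against 1900 and 2850 bp. Both sites were lost.

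BLTP2 shows the inward pattern. Its region measured 4250 and 3950 bp in control cells and 3150 and 3300 bp after CTCF siRNA, and its right edge lay at 26974300 and 26974050 of chromosome 17 in control cells and at 26973350 and 26973400 after CTCF siRNA. The BLTP2 site, with a fold enrichment of 18.3 and 20.6 and no peak after CTCF siRNA, was inside the region in both control libraries and outside it in both CTCF siRNA libraries. VEGFA, the endothelial growth factor gene, had 5750 and 5300 bp against 4700 and 5450 bp, with a lost site of fold enrichment 21.97 and 23.7 lying in an exon 204 bp outside the mean control edge. The other 2 of the 4 farthest of the 22 inward moves were 397815 bp from the start of HNRNPA3, with 1200 and 1650 bp against 950 and 1250 bp, and 9816 bp from the start of ERBB4, where 3 libraries ended within 50 bp of each other and CTCF siRNA replicate 2 did not. Widths at that last region were 1250 and 2050 bp in control cells and 1200 and 1150 bp after CTCF siRNA.

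Whole regions were also grouped by the CTCF sites inside their joined span. The outermost edges over the 4 libraries set this span, so a wider treatment can take in more sites. A stricter placing is given below. Of 24543 regions, 21126 held no control CTCF site, 2537 held lost sites only and 880 held at least 1 kept site. Both CTCF siRNA libraries were wider than both control libraries at 15.5% of the regions without a site (Wilson 95% interval 15.0 to 16.0%), 18.01% of those with lost sites (16.6 to 19.6%) and 32.2% of those with a kept site (29.2 to 35.3%). Both were narrower at 5.86%, 7.13% and 3.64%. The median widths of the 880 regions with a kept site were 1400 and 1600 bp in control cells and 1600 and 1850 bp after CTCF siRNA, a median log2 difference of 0.12, beside 0.12 between the control replicates and 0.20 between the CTCF siRNA replicates.

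The higher share at kept sites was present in every subset examined. Over protein-coding starts it was 40.2% of 254 regions, against 11.5% of 8398 without a site, and elsewhere 28.9% of 626 against 18.1% of 12728. By mean width it was 26.98% of 404 regions of at most 1500 bp, 39.3% of 338 regions between 1500 and 3000 bp and 29.7% of 138 regions above 3000 bp, against 20.3%, 15.3% and 7.42% of the regions without a site. Kept sites were stronger in control cells, with a median fold enrichment of 21.7 against 10.5 at lost sites. Among the 180 regions with lost sites at least as strong as the median kept site, 21.7% were wider, and among the 440 regions with kept sites below that median, 35.0% were. With sites counted only where they lay inside the region of all 4 lists, the shares were 32.0% of 807 regions with a kept site, 17.95% of 2239 with lost sites and 15.6% of 21497 without a site. Relative to regions without a site, the share at kept sites was 2.08 times as high with all libraries and 1.96 times without CTCF siRNA replicate 2. It was 1.72 times as high without control replicate 1, 1.24 times without CTCF siRNA replicate 1 and 1.20 times without control replicate 2. The split by strength and the stricter placing of sites were added after the data were seen, and what sets the share was not tested.

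**Figure D4:**
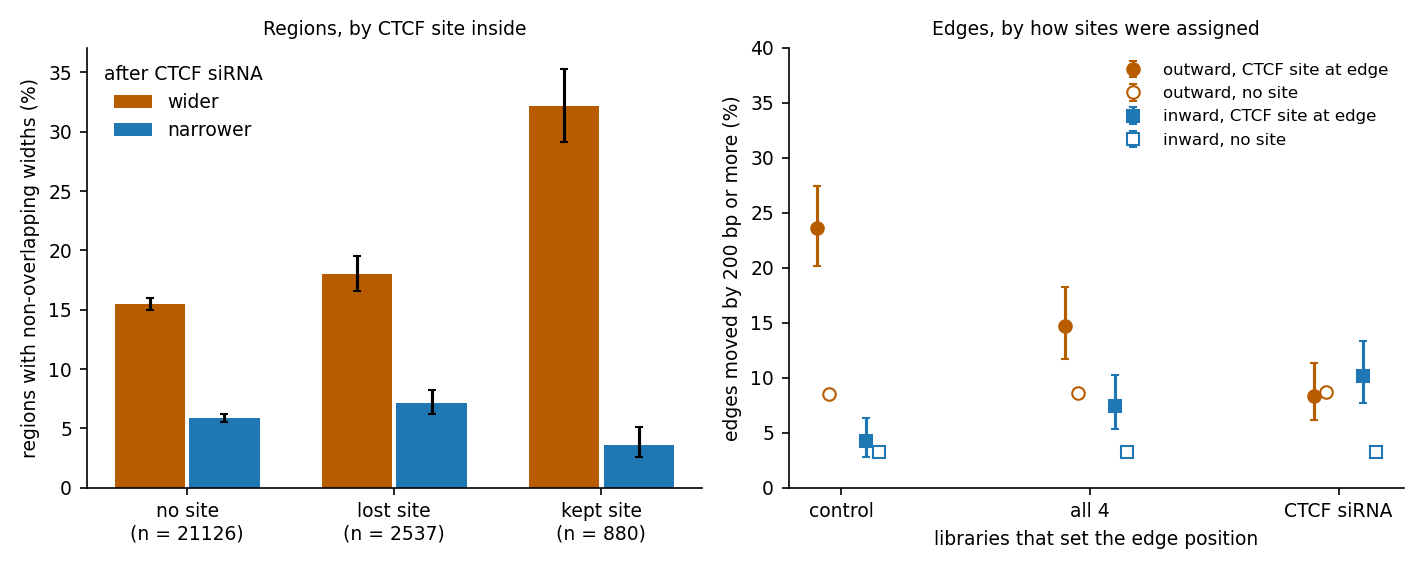
Left, share of regions (%) whose widths in both CTCF siRNA libraries lay above (wider) or below (narrower) both control libraries, for 21126 regions without, 2537 with lost and 880 with kept CTCF sites. Right, share of edges (%) that moved at least 200 bp, with a CTCF site at the edge (filled) or none (open), for edge positions taken from the control libraries, all 4 libraries or the CTCF siRNA libraries. Bars are Wilson 95% intervals. The outward share at sites falls from 23.6% to 8.37% across the 3 positions while the inward share goes from 4.22% to 10.2%.

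Splitting and merging were rare. A shared region counted as split when it was 1 piece in both control libraries and at least 2 in both CTCF siRNA libraries, which was so at 46 of 26802 regions (0.172%), and as merged in the reverse case, at 127 (0.474%). Regions in 2 or more pieces made up 4.91% and 3.64% in control replicates 1 and 2, and 4.56% and 1.64% in CTCF siRNA replicates 1 and 2, so the replicates of CTCF siRNA differed more than the treatments. With 1 library left out, when a single list stands for a treatment, the split count was 124 without control replicate 1, 49 without control replicate 2, 166 without CTCF siRNA replicate 1 and 342 without CTCF siRNA replicate 2. The merged count was 436, 580, 423 and 99 in the same order. Replicate 1 had more pieces than replicate 2 at 823 regions in control cells and at 1032 after CTCF siRNA. A protein-coding start was held by 11 of the split regions (23.9%), 73 of the merged regions (57.5%) and 40.9% of all shared regions. Control CTCF sites lay in 17.4% of the split, 21.3% of the merged and 14.2% of all shared regions. A site found in both CTCF siRNA libraries lay in 0 of 46 split, 1 of 127 merged and 452 of 26802 shared regions. At so low a share over all regions, the split set is too small for its 0 to be read as a difference.

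Among the widest merged regions over a start, EFNA1, an ephrin ligand, ZNFX1, an RNA helicase family gene, and OSBP, an oxysterol binding protein, were each in 2 pieces in both control libraries and 1 piece after CTCF siRNA, with no control CTCF site. OSBP spanned 5700 and 7150 bp in control cells and 6850 and 7850 bp after CTCF siRNA. The widest split regions were at FANK1, RASSF3, DEXI and RBM33, each 1 piece in both control libraries and 2 in both CTCF siRNA libraries. The span at FANK1 was 12500 and 12650 bp in control cells and 12550 and 12500 bp after CTCF siRNA, so that the CTCF siRNA libraries had a gap inside a region of nearly the same extent. RASSF3 and RBM33 held a lost CTCF site, with fold enrichments of 5.99 and 8.82 and of 4.28 and 6.78 in control cells. NDRG1, an androgen-induced gene, was also split, with the piece over its start at 3300 and 3850 bp after CTCF siRNA against 4400 and 5100 bp in control cells.

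Presence was compared after every list was shortened to 36492 regions, the length of the shortest, with the lowest scores first and wider regions first among equal scores. Of 36959 regions in at least 2 shortened lists, 24512 were in all 4, 1564 were in both control lists and neither CTCF siRNA list (4.23%), and 1942 were in both CTCF siRNA lists and neither control list (5.25%). Both exclusive sets were short and low in their lists. Their median spans were 1150 and 1300 bp against 2500 bp for regions in all 4 lists, and their median ranks lay 78.0% of the way down, against 34.5%. A region near the end of a shortened list can be absent from another list for its rank alone, and in the full lists 41.2% of the control-only and 57.5% of the CTCF siRNA-only regions were still exclusive. With 1 library left out, control-only counts ranged from 2737 without CTCF siRNA replicate 1 to 5990 without control replicate 2, and CTCF siRNA-only counts from 3231 without control replicate 1 to 5537 without CTCF siRNA replicate 1.

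Most exclusive regions lay away from promoters. A protein-coding start was held by 1.47% of the control-only, 5.51% of the CTCF siRNA-only and 44.5% of the regions in all 4 lists, and 87.1%, 78.5% and 45.6% lay over 10000 bp from any such start. A lost CTCF site was held by 8.63% of the control-only, 5.15% of the CTCF siRNA-only and 11.2% of the regions in all 4 lists. A site found in both CTCF siRNA libraries was held by 17 of 1564, 68 of 1942 and 424 of 24512 regions in the same order. Any control CTCF site was held by 12.7%, 10.9% and 14.9%. Over all 20098 protein-coding starts, the full lists covered 12188 and 12510 in the control libraries against 12428 and 13118 after CTCF siRNA, and 11998 were covered in every library. Starts covered in both libraries of 1 treatment alone numbered 20 for control and 154 for CTCF siRNA.

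H3K27ac, acetylation of lysine 27 of histone H3 at active promoters and enhancers, was mapped in separate libraries of the same treatments and was not used to choose these regions. With H3K27ac lists also shortened to one length, 76.1% and 67.1% of the control-only H3K4me3 regions overlapped H3K27ac in control replicates 1 and 2, and 59.7% and 63.2% after CTCF siRNA. The means were 71.6 ± 6.37% and 61.4 ± 2.44% (SD, n = 2). For CTCF siRNA-only regions the values were 53.3% and 51.4% in the control libraries against 59.3% and 60.7% after CTCF siRNA, with means of 52.4 ± 1.38% and 60.0 ± 0.947% (SD, n = 2). For regions in all 4 lists they were 80.7%, 80.3%, 80.5% and 81.0%. The overlap of both exclusive sets was thus higher in the libraries of their own treatment, without overlap between treatments, though 2 against 2 libraries cannot pass a threshold (exact permutation test, p = 0.333, the smallest possible). With full H3K27ac lists the control-only values were 79.9% and 67.1% against 69.2% and 71.4%, which do overlap. The stretches that H3K4me3 edges gained outward had their midpoint in an H3K27ac region in 54.0% and 47.3% in the control libraries against 60.2% and 66.0% after CTCF siRNA (4263 edges). For the stretches that edges lost inward the values were 69.9% and 54.1% against 59.6% and 67.2% (1622 edges), which overlap (exact permutation test, p = 1). At 43201 edges that did not move they were 48.6%, 40.1%, 48.2% and 56.7%.

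**Figure D5:**
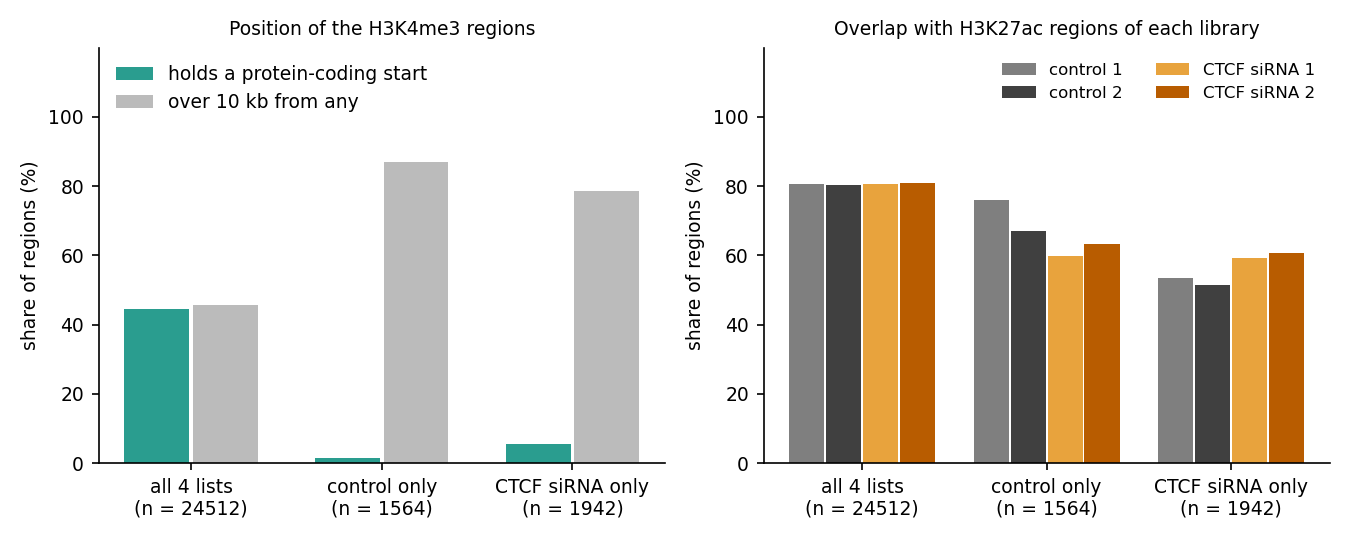
Left, share of regions (%) that hold a protein-coding start or lie over 10 kb from any, for 24512 regions in all 4 shortened lists, 1564 in control lists only and 1942 in CTCF siRNA lists only. Right, share of the same regions (%) that overlap an H3K27ac region in each of 4 libraries, with H3K27ac lists of equal length. The bars are flat at 80.3% to 81.0% for shared regions and step down after control for control-only regions and up for CTCF siRNA-only regions.

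Of the 5 control-only promoter regions highest in their lists, 3 belonged to clustered protocadherin genes, which encode neuronal adhesion molecules from arrays of alternative promoters on chromosome 5. The start of PCDHGA3 was covered over 1350 and 1400 bp in control cells and by no region in either CTCF siRNA library, also in the full lists. PCDHB15 had 1650 and 1450 bp over its start in control cells and none after CTCF siRNA, although CTCF siRNA replicate 1 listed a region beside the start, and PCDHGA2 had 1950 and 1350 bp in control cells, none in CTCF siRNA replicate 1 and 850 bp in the full list of replicate 2. CTCF sites at the starts of PCDHGA2 and PCDHGA3, with fold enrichments of 8.07 and 9.38 and of 7.42 and 7.55 in control cells, were lost. Over 53 protocadherin genes, the full lists covered 32 and 33 starts in the control libraries against 18 and 23 after CTCF siRNA, a mean of 32.5 ± 0.707 against 20.5 ± 3.54 (SD, n = 2). The treatments did not overlap, and p = 0.333 is again the smallest an exact permutation test allows. By array, the counts were 6 and 5 against 2 and 3 starts of 15 in the alpha array, 9 and 9 against 4 and 4 of 16 in the beta array, and 17 and 19 against 12 and 16 of 22 in the gamma array. Over all 53 genes, 0 starts were covered in both CTCF siRNA libraries and neither control library. Among the 30 starts covered in both control libraries, 9 were covered in neither CTCF siRNA library. That is 30.0%, against 20 of 12116 (0.165%) over all protein-coding starts covered in both control libraries, and these 20 include the 9. The pieces over the 9 starts measured 600 to 1650 bp in the control libraries. Single-piece regions over protein-coding starts had control medians of 2900 and 3050 bp. The shares are thus not matched for width, and shorter regions were more often absent from a list. Over all protein-coding starts the counts of the treatments interleaved, with 12188 and 12510 against 12428 and 13118, and starts covered in 1 treatment alone were mostly CTCF siRNA-only (154 against 20). Of 27 covered protocadherin starts with a control CTCF site within 1000 bp, the site was lost at 24 (88.9%, against 78.6% of all control CTCF sites). H3K4me3 covered the start in all 4 libraries at 11 of these 24, among them PCDHB2, PCDHGA4 and PCDHGB1, and in the control libraries only at 6. Protocadherin genes resemble each other in sequence, and reads with several positions were discarded, so coverage of these starts is uncertain to that extent.

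The other 2 control-only regions were at HSD17B14, a hydroxysteroid dehydrogenase, with 1750 and 1450 bp, and INSYN2B, an inhibitory synapse factor, with 1400 and 1500 bp. The HSD17B14 site was kept, and its fold enrichment was 19.6 and 17.9 in control cells against 8.19 and 5.46 after CTCF siRNA, while the site at INSYN2B, at 24.0 and 27.5, was lost. In the shortened H3K27ac lists, HSD17B14 overlapped a region of both control libraries and of no CTCF siRNA library. Each of these regions had a counterpart in the full list of 1 CTCF siRNA library, replicate 2 for HSD17B14 and replicate 1 for INSYN2B. The CTCF siRNA-only promoter regions highest in their lists were at LANCL3, HTR4 (a serotonin receptor), TCTE1, SYT2 (a synaptotagmin of synaptic vesicles) and BMP3 (a secreted ligand of the TGF-beta family). Their widths ranged from 1150 to 2100 bp in the CTCF siRNA libraries, and none held a control CTCF site. None overlapped H3K27ac in the shortened list of any library. Full control lists held a region at LANCL3 in replicate 2 and at none of the other 4 in either replicate.

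In the remaining gene lists few promoters had widths that did not overlap between treatments. No region of any list passed the limma test on widths, which used single-piece regions. The counts below are thus of groups that did not overlap. Over all regions 16.3% were wider and 5.92% narrower, and over protein-coding starts 12.9% and 6.84%. By mean width, the shares were 8.75% and 7.55% from 3000 to 4000 bp, and 9.15% and 12.2% above 4000 bp. For starts in regions of several pieces, the width of the piece over the start was compared, and among 11998 protein-coding starts covered in every library it was wider at 12.6% and narrower at 6.98%, a count added after the data were seen. Of 10 single-piece regions at CTCF and cohesin genes, 1 was wider and 2 were narrower, with a median log2 difference of -0.0025. PDS5A, a cohesin regulator, had 3350 and 3250 bp in control cells and 4000 and 3750 bp after CTCF siRNA, with both edges outward and a lost CTCF site inside. MAU2, a cohesin loader subunit, had 4300 and 4500 bp against 4150 and 4100 bp. The start of CTCF itself was covered in CTCF siRNA replicate 2 only, by a piece of 4700 bp. Every list nevertheless held H3K4me3 within the joined region around this start, at 67594451 to 67599250 of chromosome 16. Among 12 regions of the H3K4 methylation machinery, MEN1, which encodes menin, was wider by 1 to 3 steps of the 50-bp grid, with 2650 and 2700 bp in control cells and 2750 and 2800 bp after CTCF siRNA, and the median was 0.01. Counting the piece over the start, 2 of all 15 were wider and 0 narrower, the other being SETD1B, a subunit of an H3K4 methyltransferase complex, with 6300 and 5950 bp against 10250 and 14700 bp.

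Of 6 single-piece regions at androgen-induced genes none was wider or narrower, but the other 6 covered starts lay in regions of several pieces. By the piece over the start, 1 of 12 was wider and 2 were narrower. ACSL3, an acyl-CoA synthetase, had 4400 and 5550 bp in control cells and 6300 and 6650 bp after CTCF siRNA, TMPRSS2, a serine protease, had 11050 and 10750 bp against 7650 and 10300 bp, and NDRG1 is given above. KLK3, which encodes prostate-specific antigen, had 5300 and 5800 bp in control cells and 4950 and 6250 bp after CTCF siRNA. Among 8 luminal transcription factor regions GATA3 was wider, with 1850 and 2050 bp against 2150 and 2550 bp. HOXB13 had a wide region in every library, at 13150, 13050, 12900 and 13250 bp. Of 10 p53 target regions 2 were narrower. CDKN1A, the cell cycle inhibitor p21, had 3200 and 3650 bp in control cells and 2650 and 2900 bp after CTCF siRNA (log2 difference -0.30 ± 0.12, SE), with a lost CTCF site inside, and TP53I3 had 2450 and 2550 bp against 2200 and 2350 bp.

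In the cell cycle list 1 of 13 regions was narrower, at PLK1, a mitotic kinase, with 3250 and 3450 bp against 3100 bp in both CTCF siRNA libraries. Interferon response genes went both ways. Of 10 regions 2 were wider, at IFIT3 and RIGI, and 2 were narrower, among them IFI6, an interferon-induced gene, with 2150 and 2300 bp in control cells and 2050 and 2000 bp after CTCF siRNA. Of 73 ribosomal protein regions 6 were wider and 10 narrower, around a median of 0.00. RPS15 had 3450 and 3550 bp in control cells and 4050 and 4150 bp after CTCF siRNA, and RPL22L1 4850 and 5050 bp against 4550 and 4600 bp. Among neuroendocrine markers, the start of CHGA was covered in no library.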

How the data were processed

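The authors aligned single-end reads to hg19 with Bowtie, dropped duplicate reads and reads with several positions, and called H3K4me3 and H3K27ac regions with PeakRanger, one library at a time. The submitters' processing notes name hg19, Bowtie and MACS2. The deposited region lists give a position and a score whose meaning is not given in the sources used here, and the score was used only for ranking, lowest first. CTCF peaks came from MACS2, and the deposited ratio is its fold enrichment over background. Read depth is not part of the lists. The library with the longest H3K4me3 list was not the most deeply sequenced in the account of the study.

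Regions on chromosomes 1 to 22 and X were joined across libraries by an overlap of 1 bp. All widths were multiples of 50 bp. Log2 widths were fitted with limma 3.58.1 (R 4.3.3) with Benjamini-Hochberg adjustment, and library values were compared by exact permutation tests (scipy 1.17.1). Gene starts are canonical transcript starts of GENCODE release 44 mapped to hg19, and coordinates are 1-based. Control CTCF sites needed a peak in both control libraries. Named promoters were those with non-overlapping groups and the smallest p, 8 per direction, the 4 widest split and merged regions, the 4 farthest moved edges per direction at CTCF sites and the 5 highest ranked exclusive promoter regions per treatment, together with list and marker genes. Some of these genes are not reported here. The members and lists were chosen with earlier results of these data known. The code was tested on simulated data (Python 3.11.15, pandas 2.3.3). Alternatives were 50% overlap, joining within 1000 bp, the lowest 50% of scores, other list lengths, a shift of 500 bp, centring, a replicate block and leaving out each library. The authors describe the libraries as biological duplicates. Libraries of IMR90 cells were not used.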

Additional observations from a re-analysis of the deposited data

How the results depend on the processing

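Widths gave 0 limma calls in each direction under the replicate block (0 wider and 0 narrower, 1959 and 389 at an unadjusted p under 0.05) and under every alternative run except centring, which gave 47 wider and 16 narrower regions. The replicate numbers are not known to pair the samples. Deviations of same-numbered libraries correlated at 0.197 across regions, with 2 pairs only. The median log2 width difference of 0.05 became -0.044 with centred widths and ranged from -0.031 to 0.15 when libraries were left out, negative without control replicate 1 (-0.0063) and without CTCF siRNA replicate 2 (-0.031). The cause was not tested.

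With the lowest 50% of scores, which leaves fewer regions, there were 2056 outward and 896 inward edges, 15 split and 38 merged regions, and 450 control-only and 445 CTCF siRNA-only regions, and kept sites had 2.79 times the wider share of regions without a site. A minimum shift of 500 bp left 740 outward and 189 inward edges, with ratios of 5.05 for CTCF sites against other edges and 1.38 for upstream against downstream edges. Joining regions within 1000 bp left 25 split and 61 merged regions. At equal list length 23 regions were split, and with full lists 2937 were CTCF siRNA-only. For the outward share at CTCF sites relative to other edges, 2.77 with control positions, a window of 100 bp gave 2.27, positions from all 4 libraries 1.70 and positions from the CTCF siRNA libraries 0.964.

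Leaving out 1 library at a time gave 4001 to 15382 outward and 2092 to 6838 inward edges, 49 to 342 split and 99 to 580 merged regions, 2737 to 5990 control-only and 3231 to 5537 CTCF siRNA-only regions. The ratio at CTCF sites ranged from 1.75 to 2.76, that of kept sites from 1.20 to 1.96 and that of upstream to downstream edges from 1.01 to 1.52. With 1 library in a treatment these counts rest on a single list, which makes non-overlap easier to meet. The remaining alternatives stayed within 1.5 times the counts given. Region lists hold no read counts, so changes in signal within a region of constant width cannot be seen, and the 50-bp grid limits edge positions.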
